A study of Homo sapiens with 16 samples.

Results

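The comparison described here sets the 2 libraries labelled zdna4 CL against the 2 labelled zdna1 CL, chosen by their titles, 4 of the 16 libraries of the series. All 16 hold total RNA from U2OS, a human osteosarcoma cell line, and each group of 2 carries a number from 1 to 4, given in the labels as its genotype, and an arm, CC or CL. What the numbers and arms stand for is not given, and no treatment, time or promoter is named, so neither group is called a control. Beside the human genes, each number's files count reads on 1 short added contig, 198 bases long for both zdna1 and zdna4. Replicates are not said to be separate cultures, so each p-value measures the spread between these libraries, which may be technical.

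The series is about MYC, FACT and Z-DNA. MYC is a transcription factor that pairs with MAX and binds the promoters of many growth genes. FACT, formed by SUPT16H and SSRP1, takes nucleosomes apart and rebuilds them as RNA polymerase passes. Z-DNA is the left-handed double helix, favoured by alternating purines and pyrimidines and by the negative supercoils that form behind a moving polymerase. Topoisomerases remove those supercoils, and ADAR and ZBP1 carry domains that bind Z-form nucleic acids.

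The zdna1 CL libraries held 144658 and 157328 human-gene reads and the zdna4 CL libraries 310187 and 225177. Levels are in CPM, the reads of a gene per 1000000 human-gene reads of its library. One read stood for 6.91 and 6.36 CPM in the first group and 3.22 and 4.44 CPM in the second, so weakly expressed genes could not be compared. Marker genes of the mesenchymal and bone line summed to 2708 to 2980 CPM over these libraries, led by VIM and SPARC, while the osteoblast collagen gene COL1A2 had reads in 1 of the 4 only. The summed markers of epithelium stayed at 9.67 to 25.4 CPM, of neurons at 19.3 to 38.1 CPM, of muscle at 0 to 32.2 CPM and of blood at 0 to 6.91 CPM. Contig reads stood at 4.05 and 3.27 per 1000 human-gene reads in zdna1 CL and at 14.2 and 12.9 in zdna4 CL.

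A small share of genes separated the groups. Testing covered the 4656 human genes that averaged 50 CPM or more over the 4 libraries, and limma called 89 at a Benjamini-Hochberg adjusted p of 0.05, which is 1.91% of those tested. Of these, 42 were higher in zdna4 CL (0.902% of the tested genes) and 47 were lower (1.01%). The median log2 change over all tested genes was 0.00. The lower genes included genes of matrix attachment and growth signalling, 2 hypoxia genes and 7 small structural RNAs, and the higher genes included 13 mitotic genes, 3 histone genes and the nuclear RNAs MALAT1 and NEAT1. An unadjusted p under 0.05 was met by 634 genes, and edgeR's quasi-likelihood test called 103 (2.21%), of which 82 were shared with limma.

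**Figure D1:**
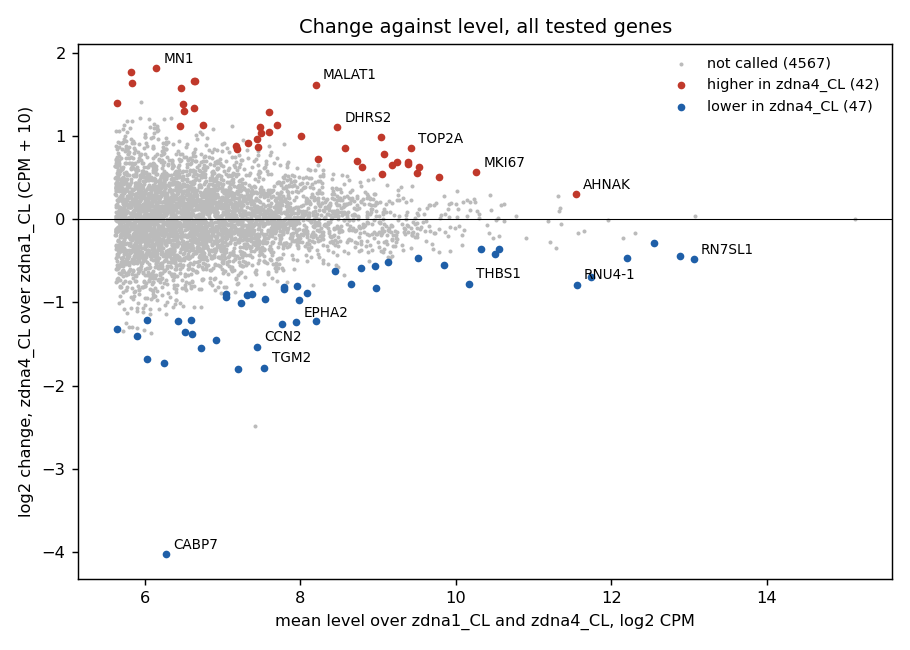
Each point is 1 of the 4656 tested human genes, with its mean level over the 4 libraries (log2 CPM) on the horizontal axis and its log2 change, zdna4 CL over zdna1 CL, on the vertical axis; red marks the 42 genes called higher and blue the 47 called lower. CABP7 lies lowest, RN7SL1 is an abundant gene with a change of -0.48, and MALAT1 is the most abundant gene with a change above 1.5.

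The design limits these counts. With 2 libraries on each side, the smallest two-sided p of an exact permutation test is 0.333, and limma's calls draw on the spread of all genes together and on its weights for each group. Without those weights 21 genes were called, DESeq2 called 16, and leaving out 1 library left 15 to 49; the first zdna4 CL library mattered most (15 called without it), then the second (20), the first zdna1 CL library (46) and the second (49). On the scale of the deposited values the split was 53 higher and 32 lower of 85. Libraries of the groups did not overlap for 43.8% of all tested genes, so a gap between 2 and 2 libraries by itself is common here.

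Several targets of the mechanical coactivator YAP and of TGF-beta signalling were lower in zdna4 CL. YAP enters the nucleus when cells spread on a stiff matrix and acts through TEAD proteins on DNA, while TGF-beta acts through SMAD proteins; both raise secreted and matrix-linked proteins. Of 28 listed targets 23 were tested, of which 4 fell, 1 rose and 18 did not pass, with a median log2 change of -0.22 against 0.00 over all genes. The 4 that fell were 17.4% of those tested, against 1.01% of all tested genes. Among the genes that fell were THBS1, CCN2 and CCN1, and the one that rose was TGFB2.

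THBS1 encodes thrombospondin 1, a secreted matrix glycoprotein that activates TGF-beta (hg19 chromosome 15, 39873280 to 39891667, plus strand). Its level was 1437 and 1476 CPM in zdna1 CL and 868 and 822 CPM in zdna4 CL. The groups did not overlap, and the log2 change was -0.78 (SE 0.0906, limma adjusted p = 1.65e-06). CCN2, a secreted connective tissue growth factor and a standard YAP readout (chromosome 6, 132269317 to 132272512, minus strand), stood at 316 and 213 CPM in zdna1 CL. In zdna4 CL it was at 79.2 and 87.0 CPM, a change of -1.53 (SE 0.190, limma adjusted p = 4.58e-06). CCN1, a relative of CCN2, was at 488 and 363 CPM in zdna1 CL and at 260 and 278 CPM in zdna4 CL. TGFB2, a TGF-beta ligand, went the other way, from 247 and 288 CPM to 479 and 505 CPM (0.86, SE 0.165, limma adjusted p = 0.00240).

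The calls of THBS1 and CCN2 held in every alternative fit that tested them, and 3 or 4 members of the list stayed lower when any 1 library was left out. TGFB2 lost its call when the first zdna1 CL library or either zdna4 CL library was left out. For THBS1, CCN2 and CCN1 the zdna4 CL libraries lay below all 6 other CL libraries of the series. The zdna3 CL libraries lay far above the rest, at 3018 and 2667 CPM for THBS1 and 821 and 744 CPM for CCN2. The zdna2 CL libraries were at 1328 and 1274 CPM for THBS1 and at 280 and 348 CPM for CCN2.

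**Figure D2:**
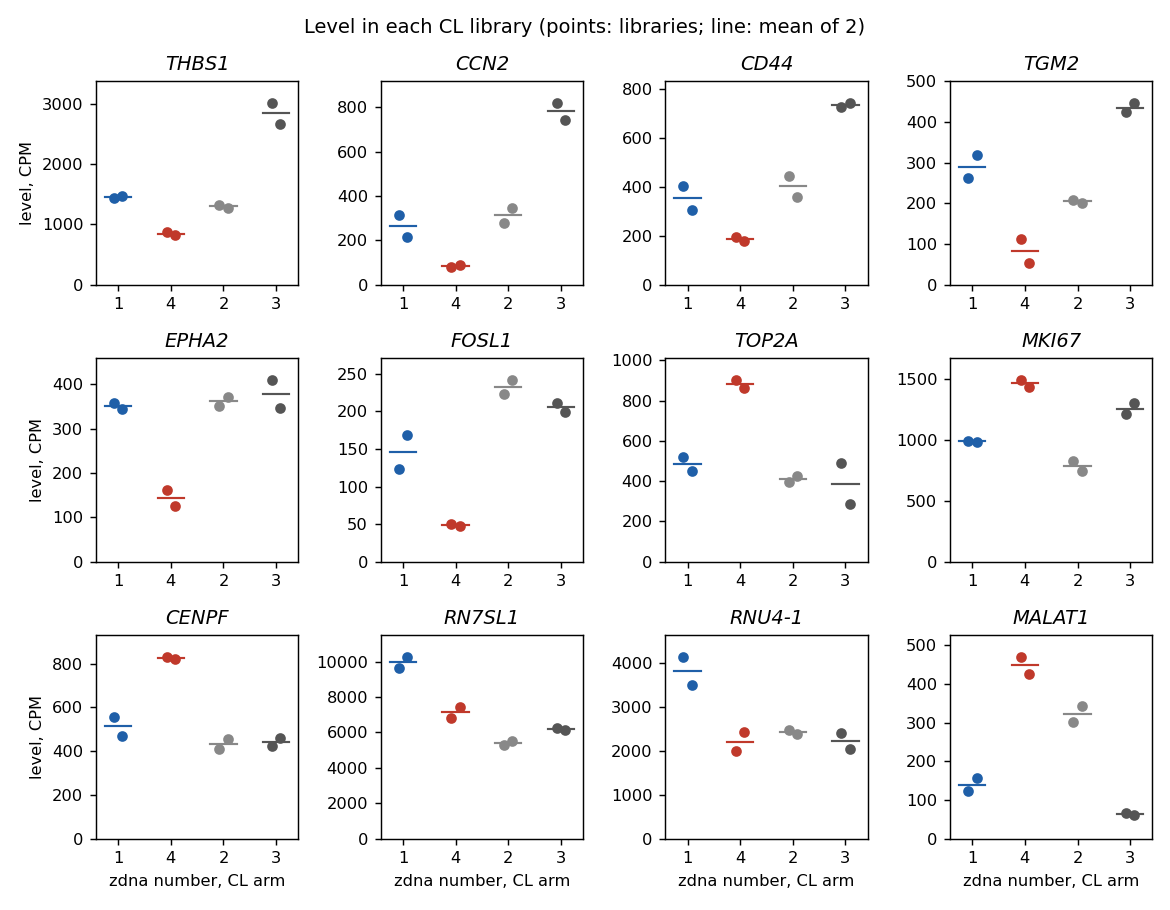
Each panel shows 1 gene, with its level in CPM from 0 on the vertical axis and the zdna number of the CL group on the horizontal axis; points are libraries and lines the mean of 2. THBS1, CCN2, CD44, TGM2, EPHA2 and FOSL1 are lowest in zdna4 CL, TOP2A, MKI67, CENPF and MALAT1 are highest there, and RN7SL1 and RNU4-1 are highest in zdna1 CL.

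The receptors that hold cells to that matrix included 5 genes that fell. Of 28 listed adhesion genes 21 were tested, 5 fell, none rose and 16 did not pass, with a median of -0.16. The 5 that fell were 23.8% of those tested, against 1.01% of all tested genes. CD44, the hyaluronan receptor, was at 406 and 307 CPM in zdna1 CL and 193 and 178 CPM in zdna4 CL (-0.89, SE 0.163, limma adjusted p = 0.00118). The others were integrin subunits. ITGA2, part of a collagen receptor, changed by -1.40, ITGB5, part of a vitronectin receptor, by -0.93, and ITGA3 by -0.52. ITGA2 averaged 27.9 CPM in zdna4 CL and passed the 50 CPM filter through its zdna1 CL reads. ITGA6, part of a laminin receptor, went from 193 and 213 CPM to 124 and 74.0 CPM. The count was 0 without the second zdna4 CL library, 1 without the first, 1 without the second zdna1 CL library and 2 without the first.

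Among 30 tested genes of the extracellular matrix and of osteoblasts, 2 fell (THBS1 and FN1), none rose and the median was -0.24. The 2 were 6.67% of those tested, against 1.01% of all tested genes. FN1, the fibronectin to which several integrins bind, was at 1575 and 1739 CPM in zdna1 CL and 1312 and 1157 CPM in zdna4 CL (-0.42, SE 0.0914, limma adjusted p = 0.00790). It was not called on the deposited scale, nor without the second zdna1 CL library or either zdna4 CL library. The collagen genes COL6A1, COL6A3 and COL5A1 had changes of -0.71, -0.67 and -0.56 and did not pass. Of 32 actin cytoskeleton genes ACTN1, the crosslinker at focal adhesions, fell by 0.47 on the log2 scale, and AHNAK, a giant scaffold protein, rose by 0.30. Each was 3.125% of the list, against 1.01% lower and 0.902% higher over all tested genes. Both calls ended when any 1 of the 4 libraries was left out.

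TGM2 and EPHA2, which stand outside those lists, were among the 12 lower genes with the smallest p. TGM2, tissue transglutaminase, which crosslinks fibronectin (chromosome 20, 36755787 to 36794910, minus strand), was at 261 and 319 CPM in zdna1 CL and at 111 and 52.2 CPM in zdna4 CL. Its change was -1.78 (SE 0.245, limma adjusted p = 1.84e-05). EPHA2, an ephrin receptor tyrosine kinase (chromosome 1, 16450832 to 16482564, minus strand), was at 358 and 344 CPM against 162 and 126 CPM (-1.24, SE 0.179, limma adjusted p = 4.00e-05). Both were lower in zdna4 CL than in any other CL library and kept their calls in every alternative that tested them. LAMB3, a laminin chain, and SDC4, a heparan sulfate proteoglycan of focal adhesions, also fell, by 0.90 and 0.80 on the log2 scale.

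Of the AP-1 and early growth factor response lists 1 gene each fell. These were 14.3% and 7.14% of those tested, against 1.01% of all tested genes. FOSL1, the AP-1 subunit FRA-1, was at 124 and 169 CPM in zdna1 CL and 50.7 and 47.9 CPM in zdna4 CL (-1.38, SE 0.245, limma adjusted p = 0.000935). It was the only one of 7 tested AP-1 subunits called, and the list's median was 0.24; the call ended without either zdna4 CL library. ERRFI1, an inhibitor of the EGF receptor, was at 261 and 200 CPM against 85.6 and 39.1 CPM, a change of -1.80 (SE 0.328, limma adjusted p = 0.00115). It was the only one called of 14 tested early response genes, whose median was -0.30, and its call ended without the second zdna4 CL library. ETV5, IER3, SPRED2 and IER2 had changes of -1.33, -1.29, -1.05 and -1.03 and did not pass. CDKN1A, the cyclin-dependent kinase inhibitor p21, fell by 0.97 on the log2 scale. It was the only one called of 20 tested p53 targets (median -0.21), which is 5% of them, against 1.01% of all tested genes. That call ended when any 1 of the 4 libraries was left out.

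Of all the lists, the mitotic genes held the most members called higher. Their products condense chromosomes, build the spindle and split the cell, and they are made mainly in G2 and mitosis under B-MYB, FOXM1 and the DREAM complex. Of 57 listed genes 52 were tested, 13 rose, none fell and 39 did not pass. The share called higher was 25%, against 0.902% of all tested genes. The median log2 change was 0.60 and 50 of the 52 had a positive change, 33 of them with an unadjusted p under 0.05. That threshold was met by 634 of all 4656 tested genes, in either direction. The listed genes together summed to 9056 and 8479 CPM in zdna1 CL and to 13843 and 13496 CPM in zdna4 CL, with the other 4 CL libraries at 7985 to 9080 CPM.

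TOP2A, topoisomerase II alpha, which untangles sister chromatids (chromosome 17, 38544777 to 38574148, minus strand), was at 523 and 450 CPM in zdna1 CL. It stood at 903 and 861 CPM in zdna4 CL, a change of 0.85 (SE 0.149, limma adjusted p = 0.000913). MKI67, which coats mitotic chromosomes (chromosome 10, 129894925 to 129924687, minus strand), was at 997 and 982 CPM against 1496 and 1440 CPM (0.56, SE 0.101, limma adjusted p = 0.00101). CENPF, a kinetochore protein (chromosome 1, 214776538 to 214837914, plus strand), was at 557 and 469 CPM against 830 and 822 CPM (0.68, SE 0.136, limma adjusted p = 0.00326). For these 3 genes the zdna4 CL libraries were above all 6 other CL libraries, as they were for 11 of the 13 mitotic genes called.

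The other called members were mostly proteins of the spindle, the kinetochore and the cleavage furrow. ARL6IP1, a membrane protein of the endoplasmic reticulum, went from 48.1 and 37.5 CPM to 155 and 157 CPM (1.66). KIF20A, the motor of the midzone, and HMMR, a spindle pole protein, changed by 1.66 and 1.77 from levels near the limit of depth, 20.6 and 75.1 CPM and 27.5 and 12.5 CPM in zdna1 CL. The spindle proteins TPX2, CKAP5 and ASPM changed by 0.65, 0.63 and 1.05, and the kinetochore motor CENPE and the checkpoint kinase BUB1B by 1.11 and 0.91. ANLN and RACGAP1, which act at the cleavage furrow, changed by 0.70 and 0.96. Outside the list PRR11, SPAG5, KIF18A and ARHGAP11A, all linked to the spindle or to cell division, rose by 0.78, 1.03, 1.30 and 1.58.

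The number of mitotic calls depended on both zdna4 CL libraries, while the median stayed positive in each alternative run. No member was called when either zdna4 CL library was left out, with medians of 0.53 and 0.66. Leaving out the first or the second zdna1 CL library left 7 and 5, fitting without group weights left 2, DESeq2 called 1, testing every gene without the level filter left 0, and edgeR called 15. In RNA from whole cultures, more cells in mitosis and more of these RNAs per cell cannot be told apart.

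Genes of DNA synthesis did not share that difference in their calls. Of 37 tested genes of S phase and DNA replication, none was called by limma or edgeR, and 1 was higher and 1 lower at an unadjusted p under 0.05. Their median was -0.08, and the list of 52 summed to 6090 and 5632 CPM in zdna1 CL and to 6009 and 5809 CPM in zdna4 CL. A test of the difference between the 2 lists was not made.

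**Figure D3:**
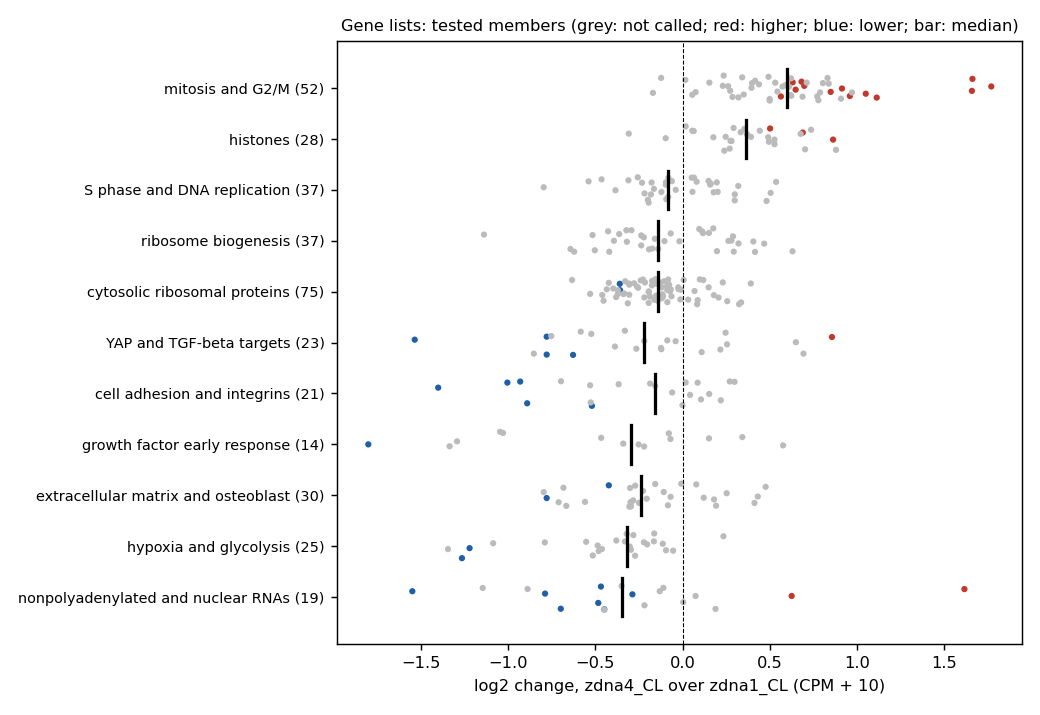
Each row is a gene list with its number of tested members, each point a member's log2 change, zdna4 CL over zdna1 CL, and each bar the list's median; red and blue mark members called higher and lower, grey those not called. The mitotic list has its median at 0.60 and the histone list at 0.36, while the S phase list sits at -0.08 and the hypoxia list at -0.32.

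A few histone genes were also higher. Replication-dependent histone RNAs end in a stem-loop and not in a poly(A) tail, and they are made as DNA is copied. Of 51 listed genes 28 were tested, 3 rose, none fell, and 26 of 28 had a positive change with a median of 0.36. The 3 that rose were 10.7% of those tested, against 0.902% of all tested genes. H2BC12, a core histone H2B gene, went from 440 and 482 CPM to 719 and 779 CPM (0.69, SE 0.125, limma adjusted p = 0.00115). H2AC6, a core histone H2A gene, went from 124 and 119 CPM to 231 and 226 CPM (0.86). The histone total was 7093 and 7132 CPM in zdna1 CL and 9398 and 9664 CPM in zdna4 CL, within the range of the CL arm, since zdna3 CL reached 12427 and 12430 CPM. No histone gene was called without either zdna4 CL library, and 8 were called after a correction for exon length, an alternative chosen after seeing the data. Reads of near-identical histone genes cannot be fully told apart.

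Promoter sequences are printed for 3 of the mitotic genes that rose and 2 of the matrix genes that fell, because motifs known from the control of each group can be read in them. The sequences are the 250 bases before the start in RefSeq (GRCh38.p14), 5′ to 3′ on the gene's strand. In the first 3, capitals mark TTTGAA, the cell cycle homology region (CHR) through which DREAM and B-MYB act, and CCAAT, bound by NF-Y, on either strand (TTCAAA and ATTGG on the other). In the last 2, capitals mark only GGAATG, the TEAD motif.
TOP2A: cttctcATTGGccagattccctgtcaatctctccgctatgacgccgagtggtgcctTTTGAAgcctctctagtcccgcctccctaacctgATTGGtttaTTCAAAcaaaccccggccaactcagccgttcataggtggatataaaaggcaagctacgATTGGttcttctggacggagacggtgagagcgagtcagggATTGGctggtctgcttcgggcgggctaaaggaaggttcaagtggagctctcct
MKI67: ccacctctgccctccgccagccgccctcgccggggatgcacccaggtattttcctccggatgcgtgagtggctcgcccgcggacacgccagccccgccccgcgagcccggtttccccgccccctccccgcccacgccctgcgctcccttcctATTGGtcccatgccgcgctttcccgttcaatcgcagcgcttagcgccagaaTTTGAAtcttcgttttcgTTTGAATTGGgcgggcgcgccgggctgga
CENPF: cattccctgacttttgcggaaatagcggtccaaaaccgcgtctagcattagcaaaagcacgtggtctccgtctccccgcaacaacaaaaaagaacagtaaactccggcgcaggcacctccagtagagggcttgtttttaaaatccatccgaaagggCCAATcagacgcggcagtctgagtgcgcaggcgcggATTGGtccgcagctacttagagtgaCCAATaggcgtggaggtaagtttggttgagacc
CCN2: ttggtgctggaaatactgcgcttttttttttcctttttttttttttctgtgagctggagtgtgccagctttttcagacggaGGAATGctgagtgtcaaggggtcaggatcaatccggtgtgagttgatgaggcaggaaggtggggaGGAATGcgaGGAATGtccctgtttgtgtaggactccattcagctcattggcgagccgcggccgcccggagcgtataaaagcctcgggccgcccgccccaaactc
THBS1: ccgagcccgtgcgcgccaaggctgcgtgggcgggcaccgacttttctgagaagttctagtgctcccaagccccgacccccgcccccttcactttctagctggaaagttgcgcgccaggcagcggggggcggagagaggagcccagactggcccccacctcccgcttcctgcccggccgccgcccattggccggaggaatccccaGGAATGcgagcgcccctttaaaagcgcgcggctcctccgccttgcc

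These windows are in hg38 coordinates chromosome 17, 40417897 to 40418146, for TOP2A, chromosome 10, 128126424 to 128126673, for MKI67, and chromosome 1, 214602945 to 214603194, for CENPF. CCN2 lies at chromosome 6, 131951373 to 131951622, and THBS1 at chromosome 15, 39580829 to 39581078. TTTGAA was in the windows of 7 of the 11 called mitotic genes with an entry (63.6%) and of 16 of 33 tested mitotic genes that were not called (48.5%). It was in 12.8% of the 3833 tested genes matched and in 13.3% of all 35116 promoters. Over all called genes it was in 16 of 33 higher genes (48.5%) and 3 of 25 lower genes (12%). The printed window of CENPF held no TTTGAA. A variant of the CHR, TTTAAA, was in 7 of 33 higher genes (21.2%) and 6 of 25 lower genes (24%). It was in 4 of the 11 called mitotic genes (36.4%), 8 of the 33 not called (24.2%), 10.6% of tested genes and 11.3% of all promoters. CCAAT was in 8 of the 11 called mitotic genes (72.7%) and 25 of the 33 not called (75.8%), in 12 of 25 lower genes (48%), 42.5% of tested genes and 32% of all promoters. TTTGAA and CCAAT can overlap where the letters TTTGAATTGG meet, as in MKI67.

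GGAATG was in 5 of the 25 lower genes with an entry (20%) and 6 of the 33 higher genes (18.2%), in 13.8% of tested genes and in 11.9% of all promoters. CCN2 held 3 copies, beginning 95, 104 and 169 bases before the start, and THBS1 held 1, at 46 bases. CACGTG, the E-box that MYC and MAX bind, was in 8 of 33 higher genes (24.2%), 2 of 25 lower genes (8%), 12.1% of tested genes and 6.34% of all promoters. All motifs were searched on both strands, and a match describes letters in the window only.

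Among small structural RNAs 7 were lower in zdna4 CL, and 2 long nuclear RNAs were higher. The list of RNAs made without a poly(A) tail or kept in the nucleus had 19 tested members, of which 7 fell and 2 rose, with a median of -0.35. These were 36.8% and 10.5% of those tested, against 1.01% lower and 0.902% higher over all tested genes. RN7SL1, which scaffolds the signal recognition particle (chromosome 14, 50053298 to 50053596, plus strand), was at 9667 and 10260 CPM in zdna1 CL and 6804 and 7455 CPM in zdna4 CL. The change was -0.48 (SE 0.0563, limma adjusted p = 1.65e-06). RNU4-1, a U4 spliceosomal RNA (chromosome 12, 120730897 to 120731040, minus strand), was at 4132 and 3497 CPM against 1993 and 2423 CPM (-0.79, SE 0.0894, limma adjusted p = 1.65e-06). Its near copy RNU4-2 changed by -0.70 and RN7SL2 by -0.45; unique alignment cannot fully separate these copies.

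RMRP, the RNA of RNase MRP, changed by -0.47, RPPH1, the RNA of RNase P, by -0.29, and RNU6ATAC, of the minor spliceosome, by -1.55. SNORD33, a small nucleolar RNA outside the lists, was at 749 and 551 CPM in zdna1 CL and 317 and 400 CPM in zdna4 CL (-0.83, SE 0.164, limma adjusted p = 0.00308), and lost its call without the first library of either group. RN7SL3, a further RN7SL copy outside the lists, changed by -0.55. RN7SK, which restrains the elongation kinase P-TEFb, had a change of 0.00 and was not called. For 6 of the 7 small RNAs that fell the zdna1 CL libraries lay above all 6 other CL libraries, so zdna1 CL and not zdna4 CL stood apart. RN7SL1, for example, was at 5298 and 5525 CPM in zdna2 CL and 6273 and 6116 CPM in zdna3 CL. When any 1 library was left out, 5 to 7 members of the list were called lower.

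MALAT1, a long noncoding RNA of nuclear speckles (chromosome 11, 65265209 to 65273983, plus strand), was at 124 and 156 CPM in zdna1 CL and at 469 and 426 CPM in zdna4 CL. Its change was 1.62 (SE 0.210, limma adjusted p = 7.42e-06), and the call held in every alternative. The zdna2 CL libraries were at 302 and 342 CPM and the zdna3 CL libraries at 66.2 and 62.0 CPM, so MALAT1 was highest in zdna4 CL. NEAT1, the scaffold of paraspeckles, was at 653 and 507 CPM in zdna1 CL and 903 and 883 CPM in zdna4 CL (0.63, SE 0.156, limma adjusted p = 0.0253). It was not called by DESeq2, without group weights or without the level filter. Its call also ended when the second zdna1 CL library or either zdna4 CL library was left out.

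Gene length moved with these differences. Spearman's correlation between exon length and log2 change was 0.14 over the 4656 genes, which are not independent. Of 69 tested genes with under 500 bases of exon, 10 were lower and none higher with a median of -0.14, while of 791 genes over 8000 bases 2 were lower and 10 higher with a median of 0.08. The median exon length was 5608.5 bases for the genes called higher and 3050 for those called lower, against 4523.5 over all tested. After the length trend of each library was subtracted, 100 genes were called, 80 of them shared, and the mitotic median stayed at 0.60 with 15 called. Under that correction the small and nuclear RNA list had a median of -0.15, with 6 lower and 2 higher, and AHNAK, FAT4, RPS2 and RPL8 were no longer called.

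Hypoxia and glycolysis genes leaned to the lower side. These genes, many of them driven by HIF-1, carry glucose into the cell and through glycolysis. Of 25 tested, 2 fell and none rose, and 24 of 25 had a negative change with a median of -0.32, 12 of them with an unadjusted p under 0.05. The 2 calls were 8% of the list, against 1.01% of all tested genes called lower. Over all 4656 tested genes 634 met the unadjusted threshold, in either direction. NDRG1, a hypoxia-induced stress protein (chromosome 8, 134249418 to 134309495, minus strand), was at 413 and 419 CPM in zdna1 CL and 149 and 200 CPM in zdna4 CL. Its change was -1.22 (SE 0.189, limma adjusted p = 0.000123). SLC2A1, the glucose transporter GLUT1, was at 378 and 244 CPM against 98.2 and 148 CPM (-1.26, SE 0.250, limma adjusted p = 0.00318). PFKFB4, SLC2A3 and HK2 had changes of -1.34, -1.09 and -0.79 and did not pass. The list summed to 17469 and 17765 CPM in zdna1 CL, above all other CL libraries, which lay between 13823 and 14842 CPM. Neither gene was called without the first zdna4 CL library, and SLC2A1 was not called without the first zdna1 CL library.

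The genes of cytosolic ribosomal proteins held 2 calls. Of 75 tested, RPS2 and RPL8 were lower, by 0.36 each on the log2 scale, none rose, and 60 had a negative change with a median of -0.14. At an unadjusted p under 0.05, 17 were lower and 1 higher, and 634 of all 4656 tested genes met it in either direction. The 2 calls were 2.67% of the list, against 1.01% of all tested genes called lower. Both calls were close to the threshold (limma adjusted p = 0.0424 and 0.0465) and ended when any 1 of the 4 libraries was left out. Among 37 ribosome biogenesis genes, many of them known MYC targets, none was called by limma or edgeR, 2 were higher and 4 lower at an unadjusted p under 0.05, and the median was -0.14.

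The genes of the series title did not separate the groups. MYC (chromosome 8, 128747680 to 128755197, plus strand) was at 344 and 225 CPM in zdna1 CL and 241 and 252 CPM in zdna4 CL, a change of -0.17 (SE 0.166, limma adjusted p = 0.737). The groups overlapped, and the highest CL levels of MYC were the 966 and 1079 CPM of zdna3 CL. The FACT subunit SUPT16H was at 261 and 300 CPM against 311 and 291 CPM (0.10, SE 0.170), and SSRP1 at 406 and 532 CPM against 434 and 452 CPM (-0.07, SE 0.145). MAX, at 82.5 and 62.6 CPM against 57.1 and 65.3 CPM, had a change of -0.21 (SE 0.310).

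None of the 12 tested genes of the MYC network and none of the 15 tested FACT, HMGB and histone chaperone genes was called by limma. At an unadjusted p under 0.05, 2 of the 12 and 4 of the 15 were higher and 0 were lower. Over all 4656 tested genes 634 met that threshold, in either direction. edgeR called 1 of the 15, HMGB2, a DNA-bending protein also in the mitotic list. It was at 144 and 138 CPM in zdna1 CL and 282 and 218 CPM in zdna4 CL. ADAR, the RNA editing enzyme, was at 344 and 394 CPM against 441 and 426 CPM (0.23, SE 0.167, not called). ZBP1 had 0 and 0 reads in zdna1 CL and 1 and 0 in zdna4 CL and was not tested. All 7 tested Z-nucleic acid and double-stranded RNA binding proteins had positive changes with a median of 0.30, and none was called by limma or edgeR; EIF2AK2, the kinase PKR, had 0.52. Among 6 tested topoisomerases only TOP2A passed, with TOP1 at 0.20 (SE 0.230) and TOP2B at 0.56 (SE 0.263). The 1 call was 16.7% of the list, against 0.902% of all tested genes called higher.

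A gene with almost no reads elsewhere gave the largest change. CABP7, a calcium-binding protein of the Golgi and lysosome (chromosome 22, 30115992 to 30127820, plus strand), had 26 and 21 reads in zdna1 CL and 0 and 0 in zdna4 CL. Against a floor of 3 reads over the zdna4 CL group its level was at least 28.0-fold lower there. It had 0 reads in both zdna1 CC libraries, 1 read in a zdna3 CL library and 0 in every other library of the series. Its end overlaps that of ZMAT5 on the other strand, and the counting used no strand. ZMAT5 had 1 and 2 reads in each group. Where in CABP7 the reads lie was not tested. CABP7 passed the level filter only through its zdna1 CL reads, so its call is not separate support for the difference. It was called in each alternative that tested it except a pseudocount of 1 CPM.

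Other genes that rose in zdna4 CL belonged to none of the lists. DHRS2, a short-chain dehydrogenase (chromosome 14, 24099324 to 24114848, plus strand), went from 213 and 231 CPM to 498 and 483 CPM (1.11, SE 0.175, limma adjusted p = 0.000168). RHOBTB3, an atypical small GTPase of the BTB family, went from 316 and 382 CPM to 789 and 613 CPM (0.98), and the actin-binding proteins PALLD and SYNPO changed by 0.66 and 1.13. The transcription coactivator MN1 and the giant cadherin FAT4 changed by 1.81 and 1.63 from 20.6 to 31.3 CPM in zdna1 CL. Both passed the 50 CPM filter through their zdna4 CL reads, so their calls are not separate support for the difference. DHRS2 was not called without the first zdna4 CL library, and MN1 and FAT4 were not called when any 1 library was left out.

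Most other lists held few calls or none. HNRNPDL was the 1 gene called, higher, of 36 tested SR protein and hnRNP genes. MT2A, a metal-binding metallothionein, was the 1 called, lower, of 18 metallothionein and oxidative stress genes. These were 2.78% and 5.56% of the tested members, against 0.902% higher and 1.01% lower over all tested genes. HNRNPDL was at 254 and 194 CPM in zdna1 CL and 418 and 331 CPM in zdna4 CL (limma adjusted p = 0.0408). MT2A was at 158 and 113 CPM against 60.2 and 34.8 CPM. HNRNPDL lost its call in 9 of 22 alternative fits and MT2A in 4 of 20. MT2A averaged 47.5 CPM in zdna4 CL and passed the 50 CPM filter through its zdna1 CL reads. Neither limma nor edgeR called a member of the lists for DNA repair, respiratory chain, proteasome, translation factors, tRNA synthetases, unfolded protein response, P-TEFb, heat shock, cholesterol, iron, tubulin, the fixed list of small nucleolar RNA hosts and Cajal body RNAs, NF-kB targets and cancer-testis genes. At an unadjusted p under 0.05 these lists held 0 to 3 higher and 0 to 2 lower members each. Of all 4656 tested genes, 634 had such a p, in either direction. The cholesterol list, for example, had 3 of 17 higher at that level and a median of 0.20.

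Across the genome, 1 region kept a lower mean level in every fit. Of 88 windows of 20 Mb with at least 20 tested genes, limma called 4 (4.55%). The window at the end of chromosome 8 (140000001 to 160000000 in hg19, which runs past the chromosome's end) held 30 tested genes with a mean log2 change of -0.27 (SE 0.0382, limma adjusted p = 0.000556). Its mean log2 level was 7.41 and 7.39 in zdna1 CL and 7.17 and 7.10 in zdna4 CL, and 7.13 to 7.34 in the other CL libraries, so the zdna1 CL libraries were highest. GRINA, a membrane protein related to inhibitors of apoptosis, ARC, an immediate early gene, and RPL8 were its called genes, by -0.95, -1.21 and -0.36. The median over the window's genes was -0.28. These 3 of 30 stand against 1.01% called lower over all tested genes. ARC was not called by edgeR (edgeR adjusted p = 0.0624). ARC lost its call in 9 of 20 alternative fits, GRINA in 7 of 21 and RPL8 in 15 of 22. ARC averaged 35.8 CPM in zdna4 CL and passed the 50 CPM filter through its zdna1 CL reads. The window stayed called in all 12 alternatives run on windows, with changes of -0.23 to -0.30. The other windows called, on chromosomes 10, 17 and 19, each had a limma adjusted p of 0.0420, and none of them was called in 9 of those 12 alternatives, without either zdna4 CL library among them.

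Against all CL libraries the called genes divided by which group stood apart. Of the 42 higher genes the zdna4 CL libraries were above all 6 others for 29, and the zdna1 CL libraries were below all 6 others for 13. Of the 47 lower genes the zdna4 CL libraries were below all others for 28 and the zdna1 CL libraries above all others for 18. Over all 4656 tested genes the corresponding counts were 295 and 208 and then 255 and 238. The zdna4 CL libraries were the outer ones for 11 of 13 called mitotic genes and 4 of 5 adhesion genes, and the zdna1 CL libraries for 6 of the 7 small RNAs.

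The CC libraries of the same numbers share no library with this comparison, and the called genes were split in sign there. Of the 89 called genes 48 (53.9%) had the same sign in zdna4 CC over zdna1 CC, against 52.3% of all tested genes. By direction these were 21 of 42 and 27 of 47. In the CC arm limma called 3 of 4656 genes (0.0644%), of which 1, RN7SL1, was among the 89, and it had the opposite sign there. The median of the mitotic list was 0.06 in the CC arm and that of the YAP and TGF-beta list -0.06, against -0.12 over all genes. The zdna4 CC libraries were shallow, with 39335 and 40886 human-gene reads, and held 1449 and 1492 CPM in 401 olfactory receptor genes, silent in most tissues. Those genes summed to 99.9 and 107 CPM in zdna4 CL, 55.3 and 57.2 CPM in zdna1 CL, and 225 and 152 CPM in zdna1 CC. The part of that background in the CC differences was not tested.

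**Figure D4:**
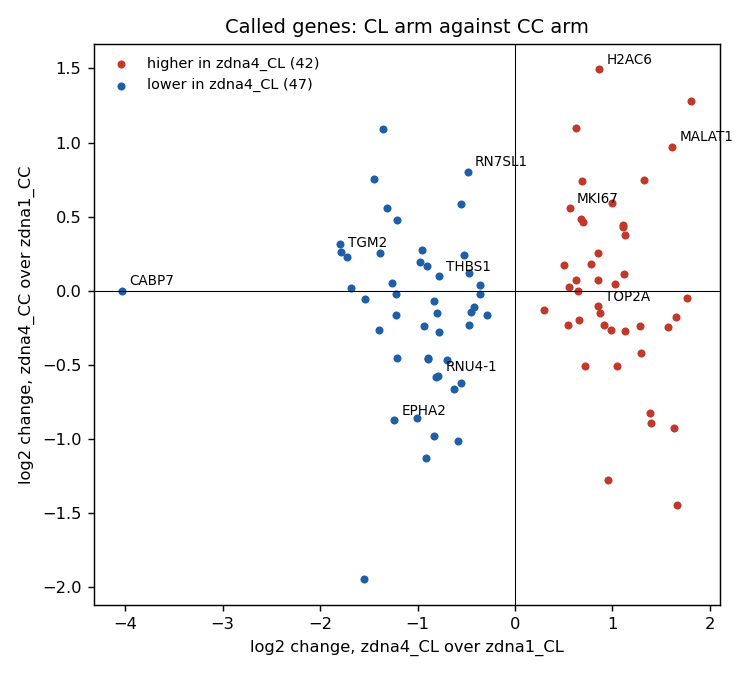
Each point is 1 of the 89 called genes, with its log2 change, zdna4 over zdna1, in the CL libraries on the horizontal axis and in the CC libraries on the vertical axis; red marks genes called higher and blue genes called lower in CL. Points lie above and below 0 on the vertical axis on both sides, with 48 of 89 on the side of their CL change, and RN7SL1 is above 0 in CC.

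A test of the difference between arms called 9 of 4656 genes (0.193%), 3 of them among the 89. These were RN7SL1, THBS1 and TGM2. For the other 86 called genes a different response in the 2 arms was not shown.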

How the data were processed

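Per the file headers, featureCounts 2.0.1 counted paired fragments per gene without strand on hg19 plus a contig. Trim Galore 0.6.6, STAR and bedtools 2.29.2 are named in the submitters' processing notes. The deposited values are a scaled signal, not counts. Dividing by each library's smallest step gave whole reads within 0.1 read for 100% of nonzero values in the 4 libraries. Floors cover counting error only.

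Levels are CPM with TMM factors (list and marker sums without). limma 3.58.1 was fitted to log2 of CPM plus 10 over the CL arm's 8 libraries and 4 group means, with weights per group (1.03 for zdna1, 1.86 for zdna4) and Benjamini-Hochberg adjustment over all tested genes. The pseudocount understates changes of low genes. edgeR 4.0.16 and DESeq2 1.42.0 on recovered reads were alternatives. On simulated data for this comparison (4559 genes), limma recovered 35.6% of 2-fold and 91.5% of 4-fold changes with 8 false calls. The simulation set the same spread for every gene and group, and that spread was not estimated from these libraries. Replicates differed beyond counting noise (chi-square p = 0.00203 and 0.00856).

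The groups and the 36 lists were chosen with earlier results of these data known. Named were the 12 called genes with the smallest p and the 6 with the largest change each way, 9 fixed genes of the MYC, FACT, Z-DNA and topoisomerase groups, up to 4 called members per list (2 where none was called), and up to 3 per called window. CCN1, ITGA3, LAMB3, SDC4, NEAT1, RPPH1, RN7SL3, further mitotic genes and uncalled genes given by change alone were chosen after their values were seen. Mitochondrial genome transcripts were not analysed here. A few called genes are counted but not reported by name here.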

Additional observations from a re-analysis of the deposited data

Results flagged for a closer look

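For 3 named genes the difference between zdna4 and zdna1 was not the same in the CL and the CC arm, by limma's interaction test over all 16 libraries. RN7SL1, a copy of the signal recognition particle RNA, was lower in zdna4 CL (-0.48) and higher in zdna4 CC (0.80), an interaction of -1.29 (adjusted p = 3.67e-11). The copy RN7SL2, not fully separable by alignment, had changes of -0.45 and -0.14, an interaction of -0.31 (limma adjusted p = 0.317). THBS1 was lower in zdna4 CL (-0.78) and had a change of 0.10 in the CC arm, an interaction of -0.88 (adjusted p = 0.0426). TGM2 had changes of -1.78 and 0.26, an interaction of -2.05 (adjusted p = 0.0485). The CC side of each rests on the shallow zdna4 CC libraries with reads in olfactory receptor genes, and their part in the difference was not tested.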

How the results depend on the processing

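The count of 89 called genes (42 higher, 47 lower) moved with the test, the level filter and the libraries used. DESeq2 called 16 (4 and 12), the fit without group weights 21 (6 and 15), and the test of every gene without a level filter 9 (2 and 7). Fitting only the 4 compared libraries left 28 lower. Leaving out 1 library gave 15 to 49 calls, 1 to 25 higher and 14 to 24 lower. No named gene reversed its sign past the threshold under any alternative. The 20 Mb windows called went from 4 to 1 with only the 4 libraries, without group weights, with library totals, a pseudocount of 1 CPM, the replicate block or the length correction, and to 1 to 4 with 1 library left out. Replicate numbers gave no sign of pairing (deviation correlations -0.0260 to 0.0133), and a replicate block called 89 genes, 87 of them shared (42 higher, 47 lower). Without the 2 zdna3 CL libraries, an alternative chosen after seeing the data like the length correction, 66 were called (32 and 34). At this depth and number of libraries 35.6% of simulated 2-fold changes were recovered, so many of that size may not be called. The simulated spread was fixed and equal between groups, so recovery in the real comparison can differ.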
